A study of Rattus norvegicus with 8 samples.

Results

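Small leucine-rich proteoglycans are secreted proteins of the extracellular matrix, and 9 genes of the family were examined in rat thoracic aorta: Dcn, Bgn, Lum, Fmod, Ogn, Prelp, Aspn, Omd and Podn. They were taken from the deposited gene table by symbol, with the row of highest mean where a symbol had several. Of its 27742 rows, 8 were found for the 9 symbols. Ogn (osteoglycin) had no row under its symbol and was not analysed here. All 8 rows were among the 12977 that reached 1 FPKM (fragments per kilobase of transcript scaled to the fragments mapped) in 4 or more libraries and were tested.

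The nitroglycerin group held 4 libraries from wild type male Sprague Dawley rats that received glyceryl trinitrate, an organic nitrate vasodilator, subcutaneously at 100 mg/kg in 3 doses a day over 3 days. The control group held 4 libraries from rats of the same strain, sex and genotype that received ethanol, the vehicle, on the same schedule. The labels state 12 weeks of age and 180 to 200 g for both groups, and this weight is low for that age in males, so 1 of these entries is uncertain. They do not state whether a library came from 1 rat, so p-values measure the spread between these libraries, which may be technical. Their extraction text speaks of an adipose type, whereas tissue and source are given as aorta. Of the 10 smooth muscle markers with a row, 0 were below 1 FPKM in every library, and their mean log2 level was 5.54 to 6.12 in nitroglycerin libraries and 5.76 to 6.0 in control libraries.

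Family members share a curved core of leucine-rich repeats that binds fibrillar collagen and sets the diameter and spacing of its fibrils. Most carry chondroitin, dermatan or keratan sulfate chains. In the artery wall they are made mainly by adventitial fibroblasts and smooth muscle cells, and several bind transforming growth factor beta.

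Biglycan (Bgn) was the most abundant of the 8 mRNAs in both groups, and asporin (Aspn) the least. By mean FPKM, which is per length, the order in nitroglycerin aortas was Bgn, Prelp, Dcn, Lum, Omd, Fmod, Podn and Aspn. In control aortas it was Bgn, Lum, Prelp, Dcn, Fmod, Omd, Podn and Aspn. Several neighbours in these orders were not separated by their spread over libraries. In nitroglycerin libraries Prelp exceeded Dcn in 3 of 4, Dcn exceeded Lum in 3 of 4 and Omd exceeded Fmod in 2 of 4. In control libraries Prelp exceeded Dcn in 2 of 4, and Dcn exceeded Fmod in 3 of 4. These orders leave out a near-identical row of Omd, described below. Summed with it, Omd averaged 93.0 FPKM in nitroglycerin aortas and 82.7 FPKM in control aortas. In controls that mean is above those of Prelp, Dcn and Fmod.

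**Figure D1:**
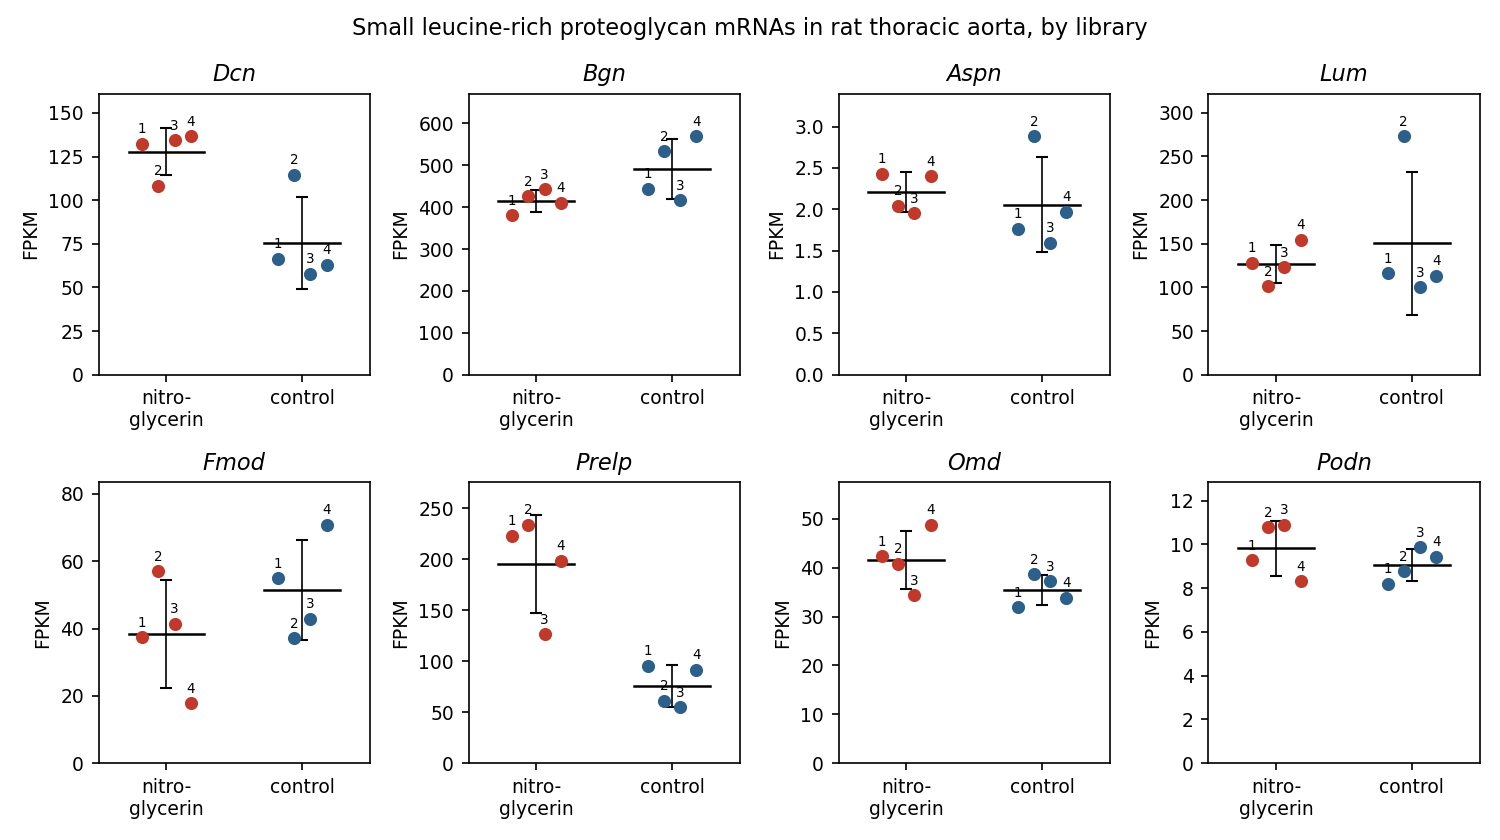
FPKM of each proteoglycan mRNA (vertical axis, from 0) in the 4 nitroglycerin libraries and the 4 control libraries. Points are libraries numbered by replicate, and lines with bars are the mean and SD. Prelp is the gene whose groups do not overlap, and control replicate 2 is the highest control for Dcn, Lum, Aspn and Omd.

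Prelp encodes prolargin, a member whose basic end binds heparan sulfate and which tethers basement membranes to collagen. Its level was 223, 234, 127 and 198 FPKM in the nitroglycerin libraries, against 95.6, 61.4, 54.7 and 91.5 FPKM in the control libraries. The groups did not overlap: the lowest nitroglycerin library, replicate 3, stood above the highest control, replicate 1. No overlap held for 1 of the 8 members, beside 24.6% of all rows, of which 24.2% were higher and 0.478% lower with nitroglycerin. The means were 195 ± 48.1 FPKM in nitroglycerin aortas and 75.8 ± 20.8 FPKM in control aortas (SD, n = 4 each), a ratio of 2.58.

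Prelp rose by a log2 difference of 1.36 (SE 0.26, 95% interval 0.77 to 1.95, limma adjusted p = 0.0492 after Benjamini-Hochberg over all 12977 rows). Of all rows tested, 99.6% had a smaller difference. The exact permutation p for Prelp alone was 0.0286 (two-sided, n = 4 per group), the smallest that 4 against 4 allows. Prelp was the 1 member of 8 called, beside 1.29% of all rows called higher, and 0 members were called lower, beside 0.0616% of all rows. The call passed narrowly: with any 1 library left out the log2 difference was 1.22 to 1.55 and the limma adjusted p 0.0515 to 0.136.

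FPKM is a share of each library, and 86.6% of all rows had a higher mean log2 value in the nitroglycerin group, with a median log2 difference of 0.30. Libraries were therefore also rescaled by the median ratio of their rows, after which that median was 0.01. On the rescaled values Prelp had a log2 difference of 0.97 (SE 0.31), which did not pass (limma adjusted p = 0.28). Rescaled nitroglycerin replicate 3, at 107 FPKM, lay below control replicate 1, at 129 FPKM. No member was called by limma after rescaling, beside 0.131% of all rows (0.0308% higher and 0.1% lower). At an unadjusted p under 0.05, limma gave 2 of 8 members as deposited, Dcn and Prelp, both higher, beside 35.2% of all rows. After rescaling it gave 2 of 8, Prelp higher and Bgn lower, beside 11.9% of all rows, of which 5.5% were higher and 6.44% lower.

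Dcn encodes decorin, a dermatan sulfate proteoglycan that coats collagen fibrils and binds transforming growth factor beta. Its level was 132, 108, 134 and 137 FPKM in the nitroglycerin libraries, against 66.5, 115, 57.9 and 63.0 FPKM in the control libraries. As deposited, control replicate 2 alone lay inside the nitroglycerin range, and the other 3 controls were all below it. The means were 128 ± 13.2 FPKM with nitroglycerin and 75.5 ± 26.3 FPKM in controls (SD, n = 4 each). The log2 difference of 0.80 (SE 0.22, 95% interval 0.29 to 1.31) did not pass over all rows (limma adjusted p = 0.0672), and the exact permutation p was 0.0571.

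Without control replicate 2 the remaining controls averaged 62.5 ± 4.36 FPKM for Dcn (SD, n = 3). The log2 difference was then 1.02 and passed (limma adjusted p = 0.0452 after Benjamini-Hochberg). Control replicate 2 was singled out by its own Dcn value, so this pass is not a separate result. With any other library left out, Dcn did not pass (limma adjusted p = 0.0652 to 0.150). After rescaling, Dcn had log2 differences of 0.42 with all libraries (limma adjusted p = 0.431) and 0.57 without that control (adjusted p = 0.257). Rescaled nitroglycerin libraries read 101 to 114.3 FPKM for Dcn. Control replicate 2, at 115.1 FPKM, stood above all of them, and the other controls read 63.7 to 89.7 FPKM.

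As deposited, control replicate 2 also had higher FPKM of adventitial fibroblast markers than the other controls. Their mean log2 level over 14 genes was 3.93 to 4.14 in nitroglycerin libraries, against 4.02 in control replicate 2 and 3.33 to 3.58 in the other 3 controls. Of these 14 genes, 12 had their highest control value in that library as deposited, as did 4 of the 8 proteoglycans. The median ratio of rows was also highest there, with a rescaling factor of 0.996 against 0.742 to 0.909 in the other controls. Rescaling therefore raises the other controls more than control replicate 2. The mean level of the marker list was not rescaled, so its excess there may lie partly in the scaling. The share of all rows highest in that library was not counted. The summed level of the markers was 1330 to 2393 FPKM in nitroglycerin libraries and 484 to 1098 FPKM in control libraries. Most of it came from Gsn, the actin-severing protein gelsolin, at 1543 ± 452 FPKM with nitroglycerin and 509 ± 225 FPKM in controls (SD, n = 4 each). Serpinf1, a secreted serpin and the next in level, read 85.7 ± 5.27 FPKM with nitroglycerin and 102 ± 28.2 FPKM in controls. No marker of this list was called in either fit by limma, and 6 of 13 tested were higher at an unadjusted p under 0.05, beside 34.1% of all rows. The part of these cells in the Dcn values was not tested, and in bulk tissue fewer cells of a type and less RNA per cell cannot be told apart.

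Bgn encodes biglycan, the close relative of decorin with chondroitin or dermatan sulfate chains, which also acts as a danger signal through Toll-like receptors once released. It read 381, 426, 443 and 411 FPKM in the nitroglycerin libraries, against 445, 533, 417 and 569 FPKM in the control libraries. The groups overlapped, since nitroglycerin replicates 2 and 3 stood above control replicate 3. Bgn averaged 415 ± 26.1 FPKM with nitroglycerin and 491 ± 71.9 FPKM in controls (SD, n = 4 each), and the log2 difference of -0.23 (SE 0.16, 95% interval -0.60 to 0.14) did not pass (limma adjusted p = 0.313). After rescaling the groups no longer overlapped, with Bgn lower in nitroglycerin libraries. It was the 1 member of 8 without overlap there, beside 8.24% of all rows, split into 3.78% higher and 4.45% lower. The rescaled log2 difference was -0.62 (SE 0.15), with an unadjusted limma p of 0.00295 and an adjusted p of 0.173.

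Aspn encodes asporin, a member without sulfated chains that restrains transforming growth factor beta. It had 1.95 to 2.43 FPKM in nitroglycerin libraries and 1.60 to 2.88 FPKM in control libraries, with a log2 difference of 0.09 (SE 0.15) as deposited and -0.17 after rescaling. Neither passed (limma adjusted p = 0.679 and 0.601). A near-identical row, Aspnl1, read 1.95 to 2.57 FPKM with nitroglycerin and 1.73 to 2.92 FPKM in controls. The ratio of Aspn to Aspnl1 was 0.840 to 1.00 over the 8 libraries, and since reads can be divided between such rows the Aspn level is uncertain.

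Lum encodes lumican and Fmod encodes fibromodulin, keratan sulfate proteoglycans that bind the same region of collagen I. Lum read 128, 101, 123 and 155 FPKM in the nitroglycerin libraries, against 116, 273, 100.2 and 113 FPKM in the control libraries. Control replicate 2 was far above all other libraries, and the remaining values of both groups overlapped. The log2 difference of -0.14 (SE 0.31, 95% interval -0.84 to 0.57, limma adjusted p = 0.761) turned to 0.19 without that library (adjusted p = 0.409), where the other controls averaged 109.9 ± 8.57 FPKM (SD, n = 3). After rescaling it was -0.52 with all libraries (limma adjusted p = 0.494) and -0.25 without that control (adjusted p = 0.651).

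Fmod read 37.4, 57.0, 41.4 and 17.7 FPKM in the nitroglycerin libraries, against 54.9, 37.1, 42.9 and 70.8 FPKM in the control libraries. The groups overlapped widely, with nitroglycerin replicate 4 lowest and control replicate 4 highest. For Fmod the log2 difference was -0.48 (SE 0.34, limma adjusted p = 0.321). Rescaled values gave -0.86 (adjusted p = 0.446), and neither passed. Without nitroglycerin replicate 4 the log2 differences were -0.16 as deposited and -0.52 rescaled (limma adjusted p = 0.673 and 0.646).

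The promoters of Lum and Fmod are shown because each gene lies beside a family member with another pattern over these libraries: in RefSeq (GRCr8) no protein-coding gene lies between Dcn and Lum or between Prelp and Fmod. Promoters were matched for 6 of the 9 genes in the RefSeq promoter table used here, and those of Dcn, Bgn and Prelp were not analysed here. The sequences are the 250 bases before the annotated start in GRCr8, plus strand, at chr7:34245456-34245705 for Lum and chr13:48045317-48045566 for Fmod, with motif matches in capitals.
Lum: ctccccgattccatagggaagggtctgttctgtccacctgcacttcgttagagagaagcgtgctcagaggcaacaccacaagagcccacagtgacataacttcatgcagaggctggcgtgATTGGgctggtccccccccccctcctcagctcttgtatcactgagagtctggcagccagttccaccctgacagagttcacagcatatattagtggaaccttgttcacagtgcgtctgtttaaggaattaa
Fmod: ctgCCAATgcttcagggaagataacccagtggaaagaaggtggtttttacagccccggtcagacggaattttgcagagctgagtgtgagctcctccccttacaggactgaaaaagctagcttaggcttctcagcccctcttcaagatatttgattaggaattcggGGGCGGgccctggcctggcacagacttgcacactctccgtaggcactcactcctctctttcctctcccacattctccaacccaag
Searched on both strands, TATAAA occurs in 12.9% of the 33469 RefSeq promoters of this length, GGGCGG in 30.5%, CCAAT in 34.0% and TGANTCA in 6.34%. The Lum window holds CCAAT once, on the minus strand, 130 bases before the start. The Fmod window holds CCAAT 247 bases and GGGCGG 85 bases before the start, both on the plus strand. A match is a description of the letters, not a binding site.

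Omd encodes osteomodulin, a keratan sulfate member first known from bone. It read 42.4, 40.8, 34.4 and 48.8 FPKM in the nitroglycerin libraries, against 31.9, 38.7, 37.3 and 33.9 FPKM in the control libraries. The 3 highest values were nitroglycerin libraries, and replicate 3 of that group lay among the controls. For Omd the log2 difference was 0.22 (SE 0.15, limma adjusted p = 0.291). Rescaled values gave -0.16 (adjusted p = 0.634), and neither passed. Omd has a near-identical row, LOC103690116, which the file describes as osteomodulin, and the ratio of Omd to it was 0.640 to 0.898 over the 8 libraries. The Omd row also pools 5 transcripts, and Ogn lies next to Omd in RefSeq, so the Omd level is uncertain.

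Podn encodes podocan, a member known to restrain smooth muscle cell growth in mouse arteries. It had 8.31 to 10.9 FPKM in nitroglycerin libraries and 8.21 to 9.86 FPKM in control libraries, and these ranges overlapped in part. Neither log2 difference passed, at 0.10 as deposited (SE 0.12, limma adjusted p = 0.567) or -0.25 on rescaled values (adjusted p = 0.483).

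Over the 8 genes the median log2 difference was 0.09 as deposited, with 5 above 0, beside a median of 0.30 over all rows with 86.6% above 0. After rescaling it was -0.21, with 2 of 8 above 0, beside 0.01 over all rows with 52.4% above 0. Dcn and Prelp were above 0, and Bgn, Lum and Fmod below 0, under both scalings. Aspn, Omd and Podn were above 0 as deposited and below 0 after rescaling.

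**Figure D2:**
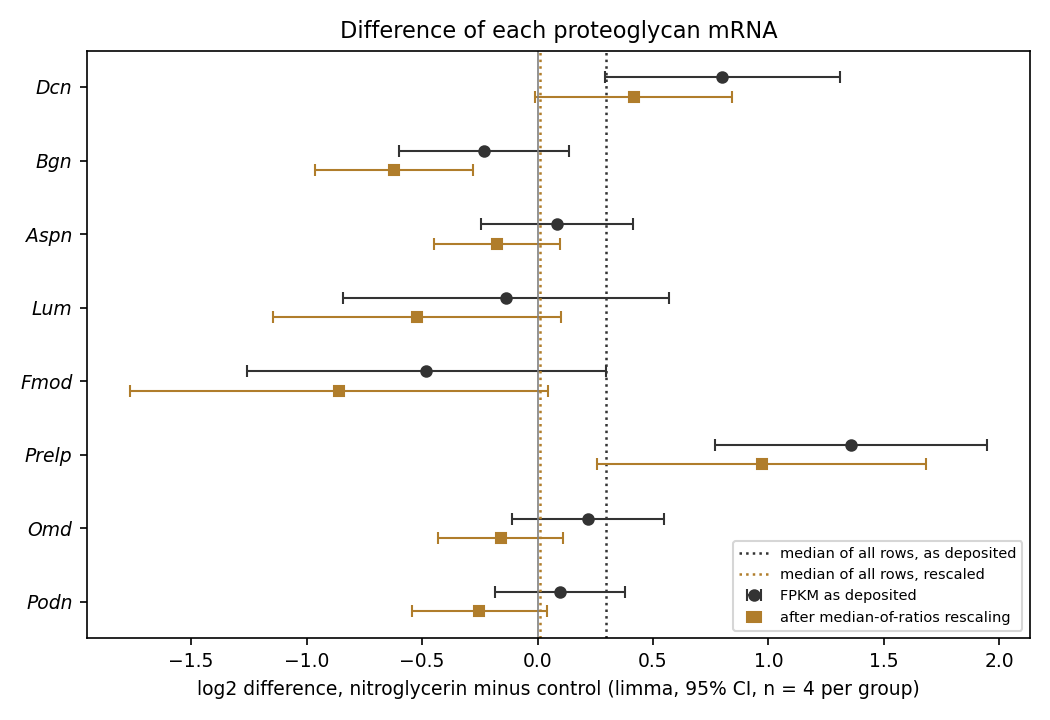
Log2 difference, nitroglycerin minus control (horizontal axis), of each proteoglycan mRNA by limma on log2(FPKM + 1), with 95% intervals and n = 4 per group. Black circles are deposited FPKM and brown squares rescaled FPKM, and dotted lines are the medians over all 12977 rows, 0.30 and 0.01. Prelp stands farthest right in both, and Fmod farthest left with all libraries included.

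Ratios of family members within a library do not depend on how libraries are scaled, and all 28 pairs of the 8 genes were compared. In 8 pairs (28.6%) the groups did not overlap, beside 7.69% of all pairs of tested rows above 0 in every library. The pairs share members: Prelp was relatively higher in 5 of them, against Bgn, Lum, Fmod, Aspn and Omd, and Dcn in 3, against Bgn, Lum and Aspn. Each had an exact permutation p of 0.0286 (two-sided, n = 4 per group), and 0.1 after Benjamini-Hochberg over the 28 pairs, so no pair passed 0.05.

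The ratio of Dcn to its neighbour Lum was 1.03, 1.07, 1.09 and 0.883 in the nitroglycerin libraries, against 0.572, 0.420, 0.578 and 0.556 in the control libraries. Control replicate 2, where both genes were high, had the lowest ratio, and the log2 difference of the ratio was 0.95. The ratio of Fmod to its neighbour Prelp was 0.168, 0.244, 0.327 and 0.0894 in the nitroglycerin libraries, against 0.574, 0.604, 0.784 and 0.774 in the control libraries. All 4 controls stood above every nitroglycerin library, with a log2 difference of -1.86, the largest of the 28 pairs. In both neighbouring pairs the groups did not overlap, and neither passed after adjustment over the pairs.

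The ratio of Dcn to Bgn, its closest relative, was 0.254 to 0.347 in nitroglycerin libraries and 0.111 to 0.215 in control libraries, a log2 difference of 1.04. Bgn to Prelp was 1.71 to 3.49 with nitroglycerin and 4.65 to 8.68 in controls, a log2 difference of -1.60. Bgn to Lum overlapped, at 2.66 to 4.21 with nitroglycerin and 1.95 to 5.02 in controls.

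**Figure D3:**
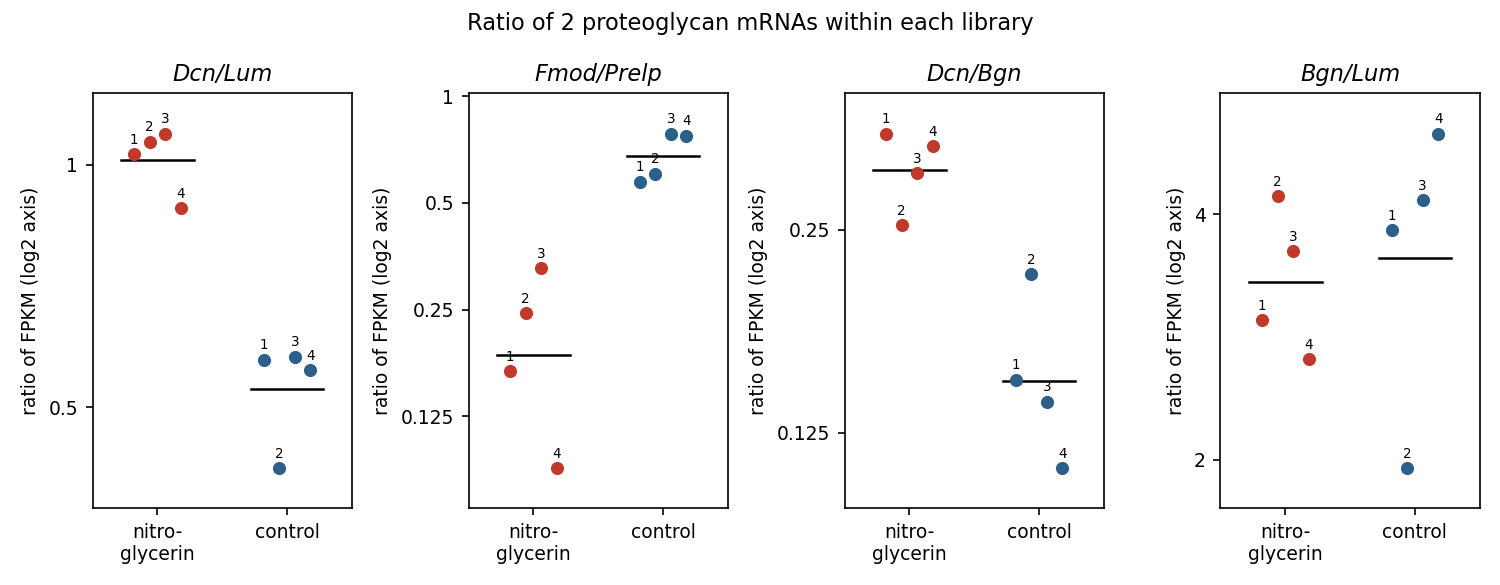
Ratio of the FPKM of 2 proteoglycan mRNAs within each library (vertical axis, log2 scale) for the pairs of neighbouring genes Dcn/Lum and Fmod/Prelp and for Dcn/Bgn and Bgn/Lum. Points are libraries numbered by replicate, nitroglycerin left and control right, and lines are means of the log2 ratios. The groups do not overlap in the first 3 panels and overlap for Bgn/Lum.

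The summed level of the 8 mRNAs was 957 ± 30.02 FPKM in nitroglycerin aortas and 891 ± 152 FPKM in control aortas (SD, n = 4 each), which is within the spread of the controls. The near-identical rows of Aspn and Omd were left out of this sum. The shares of Bgn, Prelp and Dcn in that sum did not overlap between groups, which was not tested apart from the ratios. Shares are parts of the same sum, so a larger share of 1 gene lowers the others, and these are not separate results. How often such shares separate in other sets of genes was not counted. Bgn held 43.4 ± 3.61% of the sum with nitroglycerin and 55.4 ± 4.34% in controls. Prelp held 20.3 ± 4.59% with nitroglycerin and 8.65 ± 2.56% in controls, and Dcn 13.4 ± 1.60% with nitroglycerin and 8.37 ± 1.71% in controls. Podn and Aspn had nearly the same shares in both groups, at 1.03% and 0.230% with nitroglycerin and 1.04% and 0.228% in controls.

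**Figure D4:**
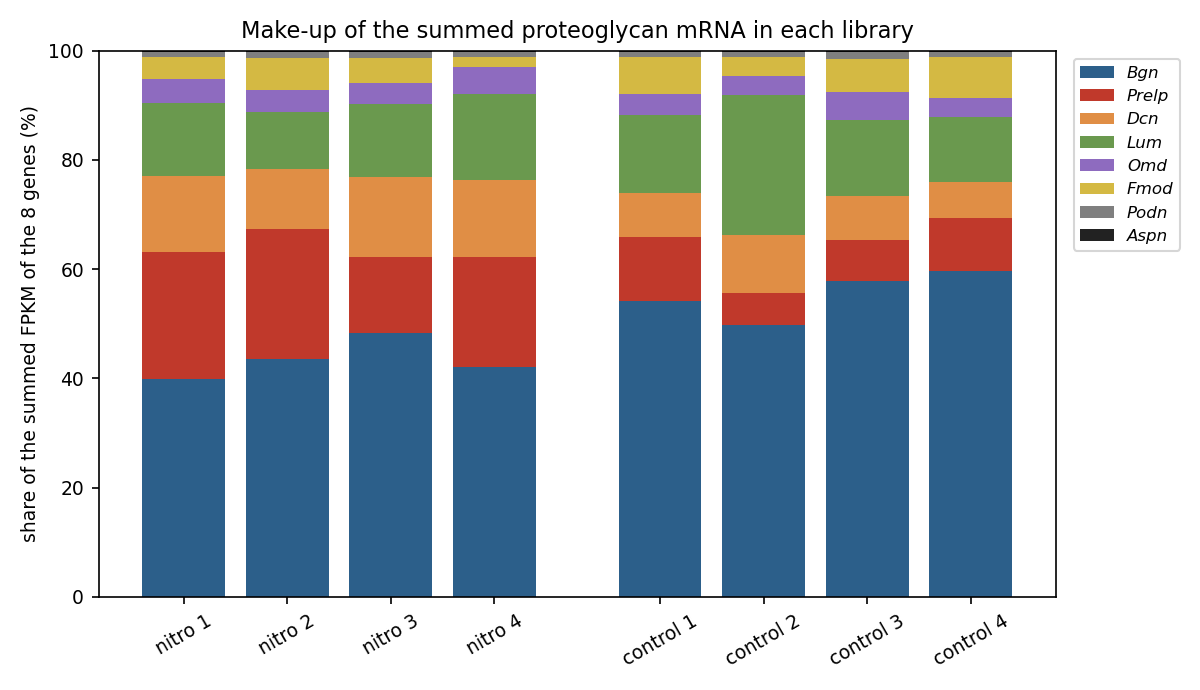
Share of the summed FPKM of the 8 proteoglycan mRNAs held by each gene (vertical axis, percent), 1 bar per library, nitroglycerin left and control right. The Bgn segment is 39.9 to 48.4% in nitroglycerin bars and 49.9 to 59.7% in control bars, and control replicate 2 has the largest Lum segment, 25.5%.

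Within the family, profiles over the 8 libraries differed by gene. On rescaled log2 values Pearson's r was 0.93 between Fmod and Podn and 0.91 between Lum and Aspn, but -0.61 between Dcn and Fmod and -0.70 between Dcn and Podn. The rows most like the mean profile of the 8 genes were Vdac1 (r = 0.98), Fuca1 (r = 0.97), Phykpl (r = 0.95), Pitpnb (r = 0.93) and Slc27a4 (r = 0.91), each over 8 libraries. The rows named had the highest r of all tested rows with a symbol outside the 8 genes, so their r is raised by that choice. The mean profile also averages genes whose profiles oppose each other. All these values describe the libraries, which share the group difference and the scaling.

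Fibrillar collagens that the proteoglycans bind, with their crosslinking enzymes, had a median log2 difference over 16 tested genes of -0.33 as deposited with 5 above 0, and of -0.70 after rescaling with 3 above 0. At an unadjusted limma p under 0.05, 2 were higher and 5 lower as deposited, beside 34.1% and 1.02% of all rows, and 0 were higher and 10 lower after rescaling, beside 5.5% and 6.44%. None was called as deposited, and Col5a1, a collagen V chain that starts fibrils, fell after rescaling (log2 difference -0.998, limma adjusted p = 0.0226). Col5a1 was 1 of 16 tested, beside 0.1% of all rows called lower after rescaling. It read 25.1 ± 1.75 FPKM with nitroglycerin and 39.5 ± 5.83 FPKM in controls (SD, n = 4 each). The main fibrillar chains, Col3a1 and Col1a1, read 1691 ± 38.4 and 1151 ± 33.5 FPKM with nitroglycerin, and 2382 ± 549 and 1779 ± 302 FPKM in controls. Both were without overlap between groups as deposited, beside 0.478% of all rows lower without overlap. The log2 differences of Col3a1 and Col1a1, -0.47 and -0.61, did not pass (limma adjusted p = 0.128 and 0.0697). As deposited, control replicate 2 had the highest control value of 11 of the 17 genes with a row. Its rescaling factor was also the largest of the controls, and the share of all rows highest in it was not counted. The part of fibroblast RNA in the values of that library was not tested.

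Among receptors and signalling partners of the family, 1 of 15 tested genes rose and 0 fell as deposited, beside 1.29% and 0.0616% of all rows, and 0 of 15 were called after rescaling. P2rx4, a purine-gated channel that biglycan engages in macrophages, read 6.40 ± 1.11 FPKM with nitroglycerin and 2.95 ± 0.480 FPKM in controls (SD, n = 4 each), and passed with a log2 difference of 0.90 (limma adjusted p = 0.0442). Rescaled, the difference was 0.59 and did not pass (adjusted p = 0.230). Itgb1, an integrin chain, read 141 FPKM with nitroglycerin and 140.4 FPKM in controls. Lrp1, an endocytic receptor that takes up decorin, read 95.1 ± 9.19 FPKM with nitroglycerin and 69.7 ± 6.77 FPKM in controls (limma adjusted p = 0.0794). The list's median was 0.16 as deposited and -0.19 after rescaling. Macrophage markers summed, as deposited, to 60.0 to 88.8 FPKM with nitroglycerin and 40.4 to 49.0 FPKM in controls. Their groups did not overlap, beside 24.2% of all rows higher without overlap, and their part in P2rx4 was not tested. Cd163, a scavenger receptor, was the 1 of 10 macrophage markers called higher as deposited, beside 1.29% of all rows, and C1qc and C1qa, the most abundant, were not called. Endothelial markers summed to 76.0 to 92.1 FPKM with nitroglycerin and 45.6 to 70.7 FPKM in controls, with 2 of 10 called higher as deposited (Esam and Eng), beside the same 1.29%, and Vwf, the most abundant, not called. None of these 3 markers was called by limma after rescaling. The marker sums were not rescaled. The median log2 difference was 0.54 as deposited and 0.22 rescaled for macrophage markers, and 0.54 and 0.21 for endothelial markers. Over all rows it was 0.30 and 0.01.

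Enzymes that build the sulfated chains gave 0 calls in either direction under both scalings. The medians were 0.24 and -0.08 for 5 genes of the shared linker, 0.11 and -0.17 for 14 genes of chondroitin and dermatan sulfate, and 0.41 and 0.11 for 5 genes of keratan sulfate, as deposited and after rescaling in each case. At an unadjusted p under 0.05 as deposited, 1 linker gene, 4 chondroitin or dermatan genes and 4 keratan genes were higher, and 1 chondroitin or dermatan gene was lower, beside 34.1% and 1.02% of all rows. Of the linker enzymes the most abundant were Xylt1, which starts the chains, at 8.24 ± 3.02 FPKM with nitroglycerin and 9.0 ± 3.93 FPKM in controls, and Fam20b, the xylose kinase, at 7.62 ± 2.99 FPKM with nitroglycerin and 7.34 ± 1.22 FPKM in controls. Chpf, a chondroitin polymerizing factor, read 7.49 ± 5.74 FPKM with nitroglycerin and 7.68 ± 5.95 FPKM in controls. Replicate 2 of each group was far above the rest, at 16.0 FPKM with nitroglycerin and 16.6 FPKM in controls, and without it the controls averaged 4.73 ± 0.813 FPKM (SD, n = 3). Chst12, a chondroitin sulfotransferase, read 5.99 ± 1.39 FPKM with nitroglycerin and 8.86 ± 2.09 FPKM in controls. Of the keratan list, Fut8, a core fucosyltransferase, read 5.75 ± 0.986 FPKM with nitroglycerin and 4.46 ± 0.769 FPKM in controls. B3gnt2, which extends the sugar backbone of keratan sulfate, read 4.74 ± 0.684 FPKM with nitroglycerin and 3.31 ± 0.545 FPKM in controls. Its groups did not overlap as deposited, beside 24.2% of all rows higher without overlap. It fell short of the threshold (limma adjusted p = 0.0835).

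Proteases that cut these proteins also gave 0 calls among 7 tested, with a median of 0.03 as deposited and -0.34 after rescaling. Mmp2, a gelatinase that cleaves decorin, read 266 ± 51.2 FPKM with nitroglycerin and 137 ± 35.6 FPKM in controls. Its groups did not overlap as deposited, beside 24.2% of all rows higher without overlap. The log2 difference of 0.97 did not pass (limma adjusted p = 0.0589). Htra1, a secreted serine protease, read 67.5 ± 20.4 FPKM with nitroglycerin and 78.8 ± 35.7 FPKM in controls. Other leucine-rich repeat proteoglycans had 0 calls among 4 tested, with Ecm2 at 9.23 ± 1.05 FPKM with nitroglycerin and 8.24 ± 1.95 FPKM in controls and Optc, the eye proteoglycan opticin whose gene neighbours Prelp, at 6.74 ± 1.45 FPKM with nitroglycerin and 5.57 ± 1.81 FPKM in controls. The median of those 4 was 0.21 as deposited and -0.13 after rescaling. Proteoglycans of other families had 0 calls among 15 tested, with a median of 0.12 as deposited and -0.13 after rescaling. Of these, Tgfbr3, the betaglycan co-receptor of transforming growth factor beta, read 38.5 ± 8.88 FPKM with nitroglycerin and 20.8 ± 3.99 FPKM in controls (limma adjusted p = 0.0615), and Cspg4, a pericyte proteoglycan, 27.1 ± 8.30 FPKM with nitroglycerin and 37.1 ± 3.84 FPKM in controls.

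Of 10 smooth muscle markers tested 0 were called, and the most abundant, Acta2 and Itga8, read 1602 ± 585 and 148 ± 22.9 FPKM with nitroglycerin, and 2075 ± 270.3 and 211 ± 28.9 FPKM in controls (SD, n = 4 each). Their list had a median log2 difference of -0.03 as deposited with 5 above 0, and of -0.42 after rescaling with 1 above 0. At an unadjusted limma p under 0.05, 1 was higher and 2 lower as deposited, beside 34.1% and 1.02% of all rows. After rescaling 1 was higher and 4 lower, beside 5.5% and 6.44%. Mesothelial and Schwann cell markers gave 0 calls among 1 and 2 tested. Among 6 skeletal muscle markers 1, the muscle creatine kinase Ckm, was called lower under both scalings. Of all rows, 0.0616% were called lower as deposited and 0.1% after rescaling. Chondrocyte markers were below 1 FPKM in every library for 6 of 7 genes with a row, and their sum was 0.854 to 1.35 FPKM with nitroglycerin and 1.3 to 2.29 FPKM in controls. Adipocyte markers summed to 16.3 to 124 FPKM with nitroglycerin and 11.2 to 29.1 FPKM in controls, the highest in nitroglycerin replicate 1, and 0 of the 4 tested were called. Prelp in that library, at 223 FPKM, lay between nitroglycerin replicates 4 and 2, and without it the log2 difference of Prelp was 1.28 (limma adjusted p = 0.136).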

How the data were processed

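Ribosomal-RNA-depleted total RNA of 8 aorta libraries was sequenced. The tools HISAT2 2.0, StringTie 1.3.0 and Bowtie 0.12.2 and the builds Rnor_6.0 and mm8 are listed, without roles, in the submitters' processing notes. The authors deposited FPKM per gene, per the file headers, and a lncRNA table with FPKM and coverage, whose 4686 transcripts included 0 named for a family member. Read counts were not analysed here, so no counting intervals are given; aligned sequence, taken as the ratio of deposited coverage to FPKM, was 6.77 to 8.39 Gb per nitroglycerin library and 7.48 to 8.86 Gb per control library.

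Values were tested as log2(FPKM + 1), which understates changes of low genes, by limma (version 3.58.1, R 4.3.3), fitted with a mean-variance trend, two-sided, with Benjamini-Hochberg adjustment over 12977 rows at 0.05. Rescaling divided each library by its median-of-ratios factor (1.07 to 1.22 nitroglycerin, 0.742 to 0.996 control). Ratios were compared by exact permutation over the splits of 4 against 4 (SciPy 1.17.1), and matplotlib 3.10.9 drew the figures. Steps were tested on simulated data. The members and gene lists were chosen with earlier results of these data known. Genes named from a pathway list were those called plus the 2 of highest mean. Alternatives covered pseudocount, filter, scaling, trend, robust fitting, replicate block, fat-marker covariate, row choice, and leaving out each library; summing near-identical rows was added after seeing the data.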

Additional observations from a re-analysis of the deposited data

Results flagged for a closer look

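Decorin mRNA in control replicate 2 stood apart at 115 FPKM, where the other 3 controls read 57.9 to 66.5 FPKM. In the nitroglycerin group, replicate 2 stood apart at 108 FPKM for Dcn, where the other 3 libraries read 132 to 137 FPKM. Lumican mRNA in control replicate 2 was 273 FPKM, where the other 3 controls read 100.2 to 116 FPKM. These 3 were found among 20 groups of 4 libraries examined, and chance alone sets apart about 1 in 20 groups. The groups reuse the same 8 libraries, so they are not independent and the flags cannot be weighed against that rate. The rule was run on values as deposited, not on rescaled ones. Rescaled, control replicates 1 to 4 read 89.7, 115, 63.7 and 69.7 FPKM for Dcn. For Lum they read 157, 274, 110 and 125 FPKM. In control replicate 2, 12 of 14 adventitial fibroblast markers were also at their highest control value as deposited. The share of all rows highest in that library was not counted, and the part of these markers in the Dcn and Lum values was not tested.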

How the results depend on the processing

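The number of genes called by limma, 175 in the analysis above, was 7 with a pseudocount of 0.1, 26 with no filter, 384 at 5 FPKM or more, 41 with no trend, 0 with the replicate block (4037 at an unadjusted p under 0.05), 9 with the fat-marker score as covariate, 828 over annotated rows, 30 with rows of a symbol summed, 17 with median-of-ratios factors and 15 with quantile normalization, and 3 to 209 with each library left out. Members called, 1 in the analysis above, became 0 with a pseudocount of 0.1, no filter, no trend, the replicate block, the fat covariate, summed rows and both other scalings, and 0 to 1 with each library left out, where the 1 was Dcn without control replicate 2. Prelp stayed above 0 in all 21 settings (0.97 to 1.55) and was called in 5. The members' median was -0.21 with median-of-ratios factors and -0.19 with quantile normalization, and 0.05 to 0.20 with each library left out. Signs turned for Lum without control replicate 2 (range over libraries left out -0.29 to 0.19), and with median-of-ratios factors and quantile normalization for Aspn (-0.17, -0.20), Omd (-0.16, -0.0037) and Podn (-0.25, -0.18); the cause was not tested. Pairs without overlap numbered 8 to 12 with each library left out. After centring within groups, same-numbered libraries correlated at 0.13, -0.01, -0.01 and 0.12, and differently numbered ones at -0.18 to 0.09. These few values cannot settle whether the numbers pair libraries. With near-identical rows summed, the members called were again Prelp alone as deposited and 0 after rescaling. Depth beyond aligned sequence is unknown, so precision at Aspn's level could not be given.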
